A study of Mus musculus with 31 samples.

Results

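The neuronal proteins that patients with autoimmune encephalitis make antibodies against were followed, for 7 of their genes, at the RNA level in a mouse hippocampus attacked by CD8+ T cells. The genes are Dbn1, Lgi1, Cntnap2, Amph, Dpp6, Iglon5 and Elavl4, chosen by symbol, and all 7 were found once each among the 15648 genes of the count table. Each was measured in all 31 mice, and the lowest level in any mouse was that of Iglon5 in D845, 13.2 CPM, so no value given for them rests on a low count.

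In autoimmune encephalitis the target of the antibody tells much about the disease. LGI1, CASPR2 (the product of Cntnap2), DPPX (the product of Dpp6) and IgLON5 lie on the neuronal surface or are secreted, where antibodies can reach them, whereas amphiphysin, HuD (the product of Elavl4) and drebrin (the product of Dbn1) lie inside the neuron, and antibodies against such proteins often accompany cytotoxic T cells. In the OVA-CD8+ LE model the T cells are specific for none of these proteins but for ovalbumin (OVA), a chicken protein that a viral vector brings into hippocampal neurons.

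All mice were adult OT-I/Rag-/- animals, whose CD8+ T cells carry a transgenic receptor for OVA and which, lacking Rag (Rag1 in the study's methods), make no other T or B cell receptors. The rAAV-OVA group received rAAV-hSyn-OVA-mCherry and the rAAV-control group rAAV-hSyn-mCherry, both into the CA1 region and both driven by the neuron-specific hSyn promoter. RNA of the left hippocampus was sequenced 2, 5, 8 and 28 d after injection, with 4 mice per vector and day except the rAAV-control group at 8 d, which had 3. Batch 1 held 23 mice by their labels, and batch 2 the other 8, which were 2 mice of each vector at 2 d and 2 of each at 28 d. Libraries held 19046977 to 57407902 counts with a median of 27024978, and levels are given as CPM, which scale counts to the size of each library.

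The label of 1 mouse disagreed in part with its RNA. Mouse D844, a batch 2 animal of the rAAV-OVA group at 28 d, is labelled hippocampus, but Drd2, a dopamine receptor gene of striatal projection neurons, stood at 99.9 CPM there and at 1.12 to 5.17 CPM in the other 30 mice. All 7 genes of a list of striatal projection neuron genes, compiled after the values were seen, were higher in D844 than in every other mouse, with a summed level of 2138 CPM against 70.5 to 156 CPM. Of the 4 markers of CA1 pyramidal cells, Fibcd1 (26.9 CPM against 44.9 to 199.6 CPM) and Mpped1 (50.1 CPM against 97.0 to 299.8 CPM) were lower in D844 than in any other mouse, whereas Wfs1 (167 CPM) and Pou3f1 (22.9 CPM) lay within the range of the others. Neurod6, a gene of glutamatergic neurons of cortex and hippocampus, was at 7.69 CPM against 42.8 to 258 CPM. The summed markers of dentate granule cells (188 CPM) and CA3 pyramidal cells (56.8 CPM) were not low in D844. They lay within the range of the other rAAV-OVA mice of 28 d, at 77.9 to 246 CPM and 41.1 to 82.8 CPM. Cd8a, which encodes the CD8 alpha chain of T cells, was at 6.28 CPM in D844 and at 79.1, 168 and 171 CPM in the other rAAV-OVA mice of 28 d. The results at 28 d are therefore followed by their values without the library labelled D844. A control mouse of 8 d, D720, had 9.73 CPM of Cd8a, whereas no other rAAV-control mouse exceeded 1.35 CPM.

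Each of the 7 genes was below the rAAV-control mean of its day in 10 to 12 of the 12 rAAV-OVA mice of 5, 8 and 28 d, as were 29.8% of all genes in at least 10. To show the sequence at their start sites, the DNA around them is printed for the 4 genes that have a single start site in RefSeq's table, with the 250 bases before the start and 50 after it. Sequences are from RefSeq on GRCm38.p6, in the direction of transcription. Capitals mark GGGCGG, the core of the GC box bound by SP1, read on both strands, and the 6 fixed letters of TTCNNNGAA, the pattern that STAT factors bind.

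The Dbn1 window, chr13:55488027-55488326 on the minus strand, is the richest of the 4 in G and C (76.7%).
Dbn1: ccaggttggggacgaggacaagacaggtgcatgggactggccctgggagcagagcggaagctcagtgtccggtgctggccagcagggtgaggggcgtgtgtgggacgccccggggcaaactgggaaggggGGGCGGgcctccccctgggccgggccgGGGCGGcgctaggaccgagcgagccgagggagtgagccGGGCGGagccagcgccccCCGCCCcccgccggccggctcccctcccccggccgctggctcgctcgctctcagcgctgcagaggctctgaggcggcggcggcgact
The Lgi1 window is chr19:38264437-38264736 on the plus strand.
Lgi1: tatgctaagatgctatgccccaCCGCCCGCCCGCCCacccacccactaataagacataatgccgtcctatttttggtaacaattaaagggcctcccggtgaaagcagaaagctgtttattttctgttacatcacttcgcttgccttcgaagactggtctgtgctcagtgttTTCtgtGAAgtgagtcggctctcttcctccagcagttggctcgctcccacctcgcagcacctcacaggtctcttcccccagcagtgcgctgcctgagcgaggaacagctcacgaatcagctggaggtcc
The Amph window is chr13:18948101-18948400 on the plus strand.
Amph: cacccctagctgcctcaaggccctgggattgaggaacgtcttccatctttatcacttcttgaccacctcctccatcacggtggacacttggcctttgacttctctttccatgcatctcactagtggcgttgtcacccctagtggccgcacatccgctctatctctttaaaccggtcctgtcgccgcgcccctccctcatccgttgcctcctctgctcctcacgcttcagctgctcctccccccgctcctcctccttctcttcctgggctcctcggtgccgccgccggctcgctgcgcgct
The Iglon5 window is chr7:43490162-43490461 on the minus strand.
Iglon5: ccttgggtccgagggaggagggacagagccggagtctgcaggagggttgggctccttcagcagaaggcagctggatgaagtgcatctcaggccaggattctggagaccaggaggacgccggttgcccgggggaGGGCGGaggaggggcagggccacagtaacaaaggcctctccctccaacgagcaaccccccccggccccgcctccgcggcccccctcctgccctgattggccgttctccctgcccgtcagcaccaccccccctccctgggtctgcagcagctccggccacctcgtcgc

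GGGCGG occurred 4 times in the Dbn1 window, 3 overlapping times in that of Lgi1, once in that of Iglon5 and not in that of Amph. Of all 32851 windows of this length, 35.7% held it. TTCNNNGAA, present in 8.3% of all windows, was found in the Lgi1 window only. TATAAA, present in 13.6% of all windows, was in none of the 4. Cntnap2 has 2 start sites in the table, Dpp6 has 3 and Elavl4 has 4. The windows thus differed in the motifs they hold, and such matches are descriptions of the DNA and not evidence of binding.

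The first question was when the antigen genes changed. Genes were said to pass the test at an FDR of at most 0.05 in edgeR's quasi-likelihood test with 2 surrogate variables, adjusted over all 15648 genes. The p-values weigh the difference between groups against the spread between mice that is left after the surrogate variables. At 2 d none of the 7 passed in either direction, as was true of every gene of the table (0% called). None had an unadjusted p under 0.05, against 9.13% of all genes, and DESeq2 called none. At 5 d Amph alone passed, lower in the rAAV-OVA group, where 13.99% of all genes were lower and 15.2% higher. Another 2 of the 7 had an unadjusted p under 0.05, as did 40.4% of all genes. At 8 d none passed, where 4.44% of genes were lower and 13.9% higher, although 4 of the 7 had an unadjusted p under 0.05 (34.3% of all genes) and DESeq2 again called none. At 28 d Lgi1, Amph, Dpp6 and Iglon5 passed, all lower, where 14.3% of genes were lower and 19.2% higher. Of the 7, 6 had an unadjusted p under 0.05 at 28 d (44.01% of all genes).

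The median Log2FC of the 7 genes was 0.13 at 2 d, -0.29 at 5 d, -0.36 at 8 d and -0.50 at 28 d, whereas the median over all genes stayed between -0.03 and 0.01. No antigen gene was higher at 5, 8 or 28 d. Amph at 28 d, with a Log2FC of -0.80, was the only value that also met the study's limit for a DEG, an absolute Log2FC of at least 0.66, which 4.86% of genes met in this direction. Without D844 the median at 28 d was -0.49, and Amph, at -0.56 (FDR = 0.0666), no longer met the limit, whereas Cntnap2, at -0.71 (FDR = 0.0222), did, against 2.41% of genes. Without covariates and D844, Dbn1, Cntnap2, Amph and Elavl4 met it, against 6.72%. At 5 and 8 d no antigen gene met it, against 4.67% and 0.588% of all genes.

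How many genes passed depended on the covariates. Without covariates all 7 genes passed at 28 d, against 16.6% of all genes lower, and 3 passed at 5 d (Lgi1, Cntnap2 and Amph), against 15.3%. Dpp6 alone passed at 8 d, against 2.65%. Without D844, 2 of the 7 passed at 28 d with the surrogate variables (Dbn1 and Cntnap2, against 5.85% of genes lower) and all 7 without covariates (18.3%). Leaving out BEC-B542 (5.57%), D661 (9.16%) or D851 (10.3%) likewise left 2 calls at 28 d, and leaving out D740 (17.8%) or D705 (15.1%) gave 7, with the share of all genes lower in the same fit in parentheses. Leaving out D844 also moved the counts at earlier days, to 3 at 5 d (15.2%) and 2 at 8 d (8.33%). With D844 and the control D720 left out together, all but Elavl4 passed at 28 d with the surrogate variables, against 18.4%. Lgi1 was then at -0.70 (FDR = 0.0128), Amph at -0.76 (FDR = 0.00943), Dpp6 at -0.72 (FDR = 0.00655) and Iglon5 at -0.51 (FDR = 0.00806). At 5 d leaving out D726 (12.5%), D745 (12.9%), D661 (13.2%) or D845 (14.4%) gave 2 and D755 (14.6%) gave 3, and at 8 d leaving out BEC-B542 (3.48%), D667 (5.71%) or D845 (5.07%) gave 2. The surrogate variables themselves correlated with Elavl4 within groups (Pearson's r = 0.63 and 0.45 over 31 mice) and with the mean of 12 pan-neuronal genes (r = 0.37 and 0.36), and the second also with the batch label (r = 0.46, against 0.083 for the first). These correlations are descriptions over the same libraries.

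**Figure D1:**
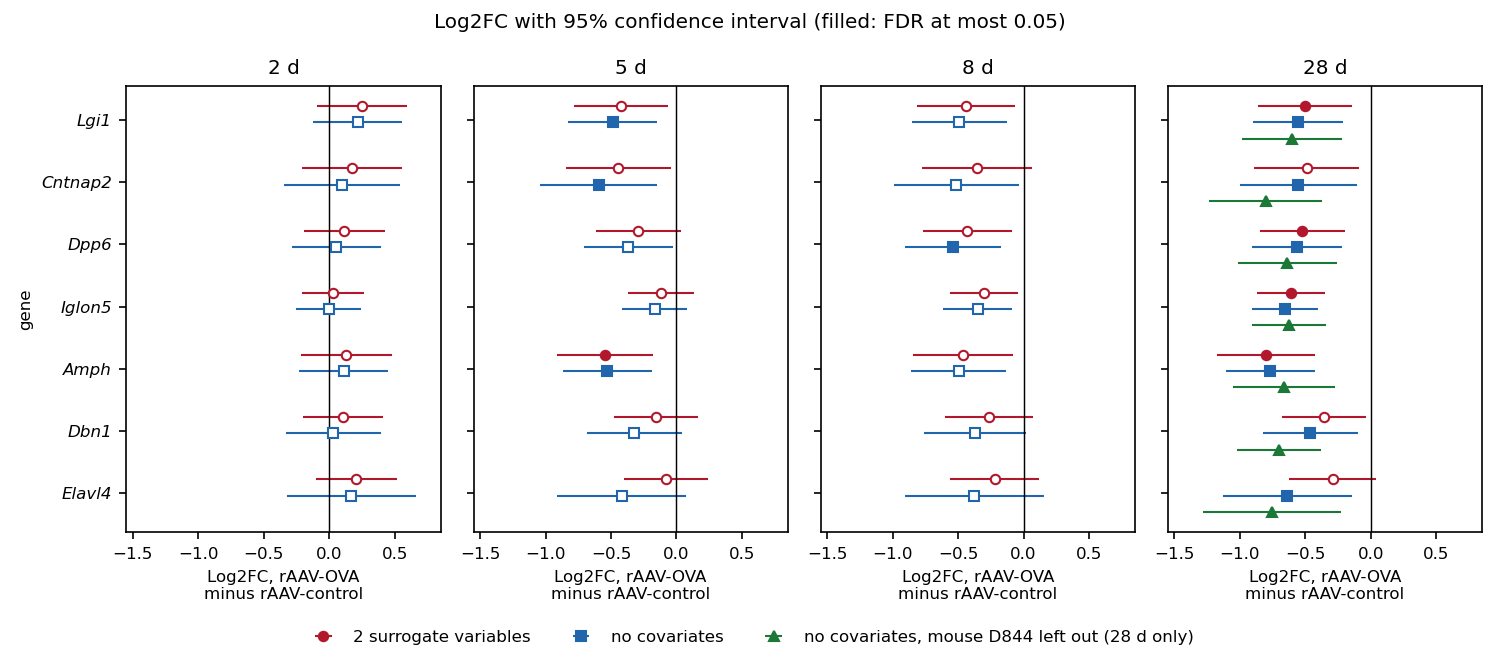
Log2FC of the 7 antigen genes, rAAV-OVA minus rAAV-control, at 2, 5, 8 and 28 d, with 95% confidence intervals. Circles are from the model with 2 surrogate variables, squares from the model without covariates and triangles, at 28 d only, from the latter with mouse D844 left out. Filled symbols had an FDR of at most 0.05. At 28 d all 7 squares and all 7 triangles are filled and lie below 0, and 4 of the 7 circles are filled.

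Mice were also compared without a model. At 2 d no antigen gene had all rAAV-OVA mice below all rAAV-control mice, which 1.94% of all genes did. At 5 d the groups were apart in this way for Dbn1, Amph and Dpp6, against 19.6% of genes. At 8 d they were apart for Lgi1, Cntnap2, Amph, Dpp6 and Iglon5, against 11.9%. At 28 d they were apart for Lgi1, Amph, Dpp6, Iglon5 and Elavl4, against 13.95%, and without D844 for all 7, against 24.7%.

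**Figure D2:**
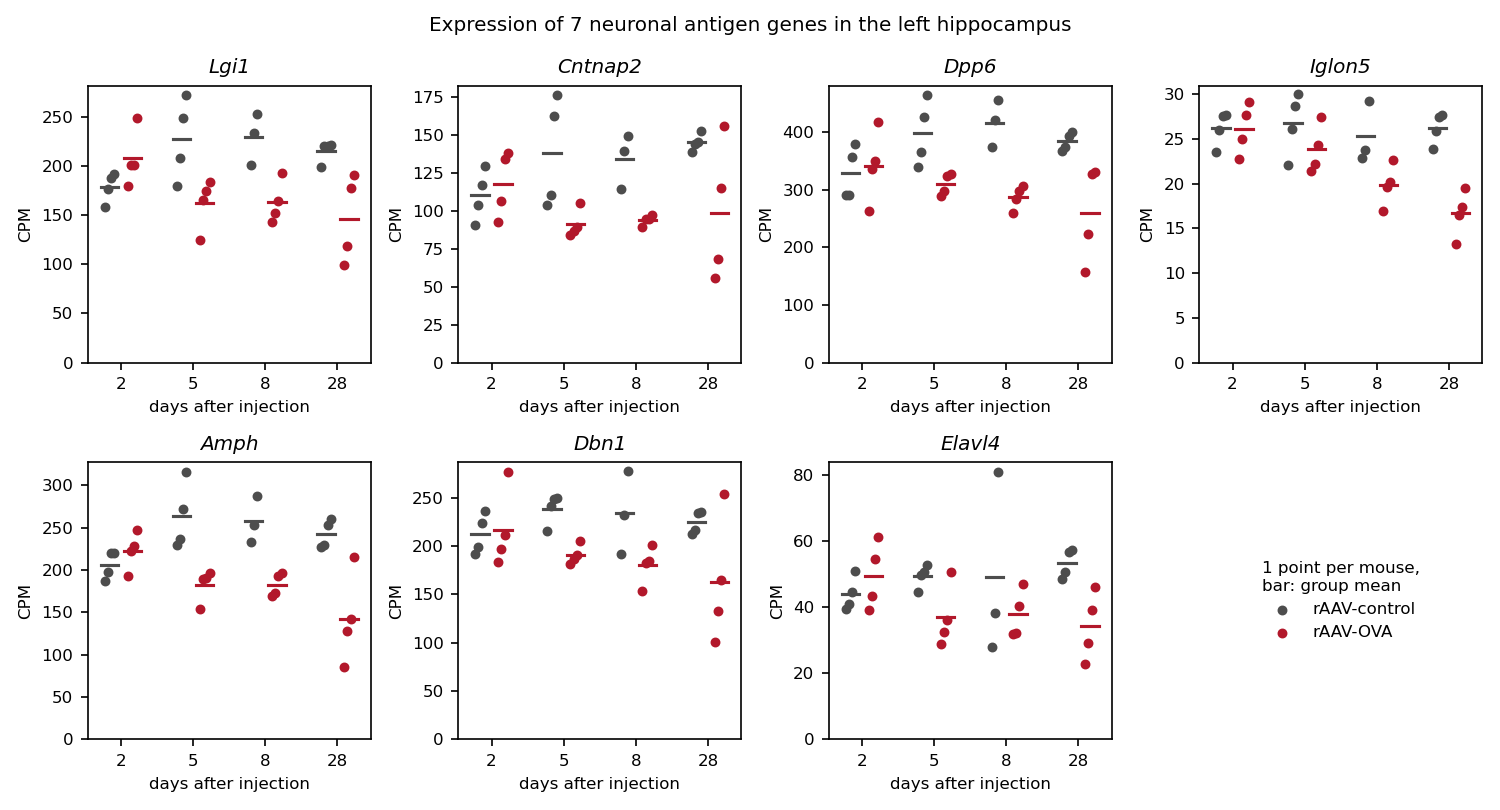
CPM of each antigen gene in each of the 31 mice by day, 1 panel per gene, 1 point per mouse, with the rAAV-control and rAAV-OVA groups side by side and short lines at the group means. From 5 d on the rAAV-OVA means sit below the rAAV-control means, and at 28 d they scatter more widely than the rAAV-control points in every panel.

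Among the surface and secreted antigens, Lgi1 encodes a secreted protein that links ADAM22 and ADAM23 across the synapse. At 2 d it stood at 192, 187, 176 and 158 CPM in the rAAV-control mice and at 201, 249, 201 and 180 CPM in the rAAV-OVA mice. At 5 d the rAAV-control mice had 273, 249, 208 and 180 CPM and the rAAV-OVA mice 125, 184, 165 and 174 CPM. The groups overlapped on both days, at 5 d by a single control mouse (D755, the deepest library). At 8 d the rAAV-control mice had 234, 201 and 253 CPM and the rAAV-OVA mice 143, 193, 152 and 164 CPM. The rAAV-control mice of 28 d were close together at 221, 199, 220 and 221 CPM, and the rAAV-OVA mice had 119 (D661), 190 (D667), 178 (D844) and 98.8 CPM (D845). Every rAAV-OVA mouse was below every control at 8 d and at 28 d. The Log2FC was -0.42 ± 0.17 (SE, FDR = 0.0696) at 5 d, -0.44 ± 0.18 (FDR = 0.0903) at 8 d and -0.50 ± 0.18 (FDR = 0.0298) at 28 d. Without D844 the value at 28 d was -0.49 (FDR = 0.109) with the surrogate variables and -0.60 (FDR = 0.0106) without covariates. The call at 28 d was also lost, with an FDR of 0.0507 to 0.104, without any of D786, D787, D683, BEC-B542, BEC-B544, D703, D696, D661, D843, D851 and D845.

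Cntnap2, whose product CASPR2 organizes potassium channels along the axon, had 117, 129, 104 and 90.5 CPM in the rAAV-control and 138, 134, 106 and 92.3 CPM in the rAAV-OVA mice at 2 d. At 5 d the values were 176, 162, 104 and 110 CPM in the rAAV-control and 84.0, 89.6, 86.4 and 105 CPM in the rAAV-OVA mice. The rAAV-OVA mice of 5 d lay close together and only 1 of them overlapped the controls. At 8 d they were at 94.7, 97.3, 89.0 and 94.9 CPM, below all 3 rAAV-control mice (149, 114 and 139 CPM). At 28 d the rAAV-control mice had 152, 139, 144 and 145 CPM, and the rAAV-OVA mice 56.0 (D661), 115 (D667), 156 (D844) and 68.0 CPM (D845). D844 stood above all controls and the other 3 below all of them. Accordingly the Log2FC at 28 d was -0.49 ± 0.19 (FDR = 0.0530) with D844 and -0.71 ± 0.22 (FDR = 0.0222) without it. It also passed, with an FDR of 0.00656 to 0.0468, without any of D723, D724, D745, D755, D684, BEC-B541, D740, D701, D702, D720, D722, D667, D705 and D845. At 5 d it was -0.45 ± 0.19 (FDR = 0.0868) and at 8 d -0.36 ± 0.20 (FDR = 0.220).

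Dpp6 encodes DPPX, an auxiliary subunit of Kv4 potassium channels in dendrites. At 2 d it measured 357, 379, 291 and 290 CPM in the rAAV-control and 349, 418, 337 and 263 CPM in the rAAV-OVA mice, which overlapped. At 5 d all 4 rAAV-OVA mice (290, 298, 323 and 327 CPM) were below all 4 rAAV-control mice (465, 427, 365 and 340 CPM). At 8 d the gap was wider, with 260, 306, 283 and 298 CPM against 420, 374 and 455 CPM. The groups were again apart at 28 d, when the rAAV-control mice had 401, 367, 375 and 393 CPM and the rAAV-OVA mice 223 (D661), 331 (D667), 327 (D844) and 157 CPM (D845). D667 and D844 lay near the controls, whereas D661 and D845 were far below. The Log2FC was -0.29 ± 0.16 (FDR = 0.165) at 5 d, -0.43 ± 0.16 (FDR = 0.0678) at 8 d and -0.52 ± 0.16 (FDR = 0.0140) at 28 d. Without D844 it was -0.49 (FDR = 0.0626) at 28 d and -0.45 (FDR = 0.0368) at 8 d. The call at 28 d was likewise lost without BEC-B542 (FDR = 0.0917), D661 (FDR = 0.0598) or D851 (FDR = 0.0535).

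Iglon5 encodes a small adhesion protein of the neuronal surface. Its controls were the steadiest of the 7 genes, with a coefficient of variation of 9.38% over the 15 rAAV-control mice. At 2 d the rAAV-control mice had 27.7, 25.9, 23.6 and 27.5 CPM and the rAAV-OVA mice 27.6, 29.1, 24.97 and 22.7 CPM. At 5 d they had 26.1, 22.1, 28.6 and 30.1 CPM against 27.4, 22.2, 24.3 and 21.4 CPM. Both days showed overlapping groups, and the Log2FC of 5 d was -0.12 ± 0.12 (FDR = 0.505). At 8 d the rAAV-OVA mice, with 16.9, 20.2, 22.6 and 19.7 CPM, were all below the rAAV-control mice, with 22.8, 23.8 and 29.2 CPM, by a narrow margin. On the last day the 4 rAAV-OVA mice had 19.6 (D661), 16.5 (D667), 17.3 (D844) and 13.2 CPM (D845) and the rAAV-control mice 27.5, 25.9, 27.7 and 23.8 CPM. The gap was clear in all 4 mice, D667 and D844 included. The Log2FC was -0.30 ± 0.13 (FDR = 0.0955) at 8 d and -0.61 ± 0.13 (95% CI -0.87 to -0.35, FDR = 0.00102) at 28 d, where the FDR was the lowest of the 7 genes. Leaving out D844 gave -0.39 (FDR = 0.0553) with the surrogate variables and -0.62 (FDR = 0.000850) without covariates, and at 8 d -0.32 (FDR = 0.0464).

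Among the intracellular antigens, Amph encodes amphiphysin, which bends membranes at sites of synaptic vesicle endocytosis. At 2 d it had 220, 220, 187 and 198 CPM in the rAAV-control and 222, 247, 229 and 193 CPM in the rAAV-OVA mice. At 5 d all 4 rAAV-OVA mice (154, 197, 189 and 191 CPM) were below the rAAV-control mice (316, 272, 237 and 230 CPM). The fall at 5 d passed the test, with a Log2FC of -0.55 ± 0.18 (95% CI -0.91 to -0.18, FDR = 0.0223). It missed the limit, with an FDR of 0.0519 to 0.109, without any of D725, D786, D787, D723, BEC-B541, BEC-B544, D703 and D696. At 8 d the values were 253, 233 and 288 CPM in the rAAV-control and 169, 193, 172 and 197 CPM in the rAAV-OVA mice, with a Log2FC of -0.46 ± 0.18 (FDR = 0.0802). At 28 d they were 253, 230, 227 and 260 CPM against 142 (D661), 216 (D667), 128 (D844) and 84.99 CPM (D845). All rAAV-OVA mice were lower, D667 only just. The Log2FC of -0.80 ± 0.18 (95% CI -1.18 to -0.43, FDR = 0.00204) at 28 d was the largest fall of any of the 7 genes on any day. Without D844 it was -0.56 (FDR = 0.0666) with the surrogate variables and -0.66 (FDR = 0.00673) without covariates, and the largest fall was then that of Cntnap2 in both fits.

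Dbn1 encodes drebrin, an actin-binding protein of dendritic spines. Its 2 d values were 236, 224, 191 and 199 CPM in the rAAV-control and 211, 277, 197 and 184 CPM in the rAAV-OVA mice. At 5 d the rAAV-OVA mice had 191, 186, 206 and 182 CPM, all below the rAAV-control mice with 242, 215, 248 and 250 CPM. Although the groups were apart, the Log2FC was -0.16 ± 0.16 (FDR = 0.476) with the surrogate variables and -0.32 without covariates, and neither fit called it. At 8 d the groups overlapped, with 154, 183, 185 and 201 CPM against 232, 191 and 278 CPM. At 28 d the rAAV-control mice had 216, 212, 234 and 235 CPM and the rAAV-OVA mice 132 (D661), 165 (D667), 253 (D844) and 101 CPM (D845). D844 was the highest of the 8 mice and the other 3 were the lowest. The Log2FC at 28 d was -0.36 ± 0.15 (FDR = 0.0779) with D844 and -0.45 ± 0.15 (FDR = 0.0348) without it. It also passed, with an FDR of 0.0217 to 0.0380, without any of D745, D684, D740, D701 and D705. Without covariates it was -0.46 (FDR = 0.0406) with D844 and -0.70 (FDR = 0.000817) without.

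Elavl4 encodes HuD, an RNA-binding protein that stabilizes neuronal transcripts. It varied most among the controls, with a coefficient of variation of 23.99%, and D696, a control of 8 d, had 80.8 CPM while the other 2 controls of that day had 27.8 and 38.2 CPM. The rAAV-OVA mice of 8 d, at 31.7, 47.0, 40.2 and 31.98 CPM, lay among them. At 2 d the rAAV-control mice had 51.0, 41.0, 44.6 and 39.3 CPM and the rAAV-OVA mice 61.1, 38.9, 54.4 and 43.3 CPM. At 5 d they had 52.8, 44.5, 49.8 and 50.5 CPM against 28.7, 32.5, 50.6 and 36.1 CPM. On all 3 days the groups overlapped, at 5 d through D786 alone. At 28 d the rAAV-OVA mice had 22.7 (D661), 39.1 (D667), 45.9 (D844) and 29.2 CPM (D845), all below the rAAV-control mice with 56.7, 48.3, 57.3 and 50.5 CPM. The gap of the raw levels and the fitted value went apart here, since the Log2FC was -0.29 ± 0.16 (FDR = 0.163) with the surrogate variables and -0.64 (FDR = 0.0384) without covariates. Without D844 the corresponding values were -0.06 (FDR = 0.861) and -0.75 (FDR = 0.0196). The first fit passed, with an FDR of 0.0185 to 0.0350, when D723, D740 or D705 was left out singly.

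In order of group means over all 8 groups, the rAAV-OVA groups of 5, 8 and 28 d were the lowest 3 for each of the 7 genes, against 15.7% of all genes. Of the 49 gaps between neighbours in these orders, 5 exceeded the larger of the 2 SDs, so most neighbours did not differ beyond their spread. For Iglon5 the steps from 5 to 8 d and from 8 to 28 d within the rAAV-OVA group were both among these 5. Without D844 the same groups were the lowest 3 for all 7 genes, against 18.1%, and 6 gaps exceeded the larger SD, both steps of Iglon5 included.

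Whether the response itself differed between days was tested as an interaction. Between 2 and 5 d it differed for Lgi1 by -0.67 ± 0.24 (FDR = 0.0457) and for Amph by -0.68 ± 0.24 (FDR = 0.0476), against 8.84% of all genes in this direction and 20.8% in either. Of the 7 genes 3 had an unadjusted p under 0.05 (34.5% of all genes). For Cntnap2 the difference was -0.62 ± 0.27 (FDR = 0.0997). Without D844 the values were -0.67 (FDR = 0.0404) for Lgi1, -0.63 (FDR = 0.0589) for Amph and -0.71 (FDR = 0.0327) for Cntnap2, where 25.2% of all genes passed in either direction and 9.44% lower. The rAAV-control means also moved between these days, from 178 to 227 CPM for Lgi1 and from 206 to 264 CPM for Amph. Those of the rAAV-OVA group went from 208 to 162 CPM and from 223 to 183 CPM. The mice of 2 d came from both batches and those of 5 d from batch 1 alone. Both calls lay near the limit. Of the 31 fits that each left out 1 mouse, 24 gave fewer calls than 2, and only those without D755, D701, D720, D667, D705, D845 or D844 gave 2 or 3, while the share of all genes lower ran from 3.8% to 9.97% over the 31 fits.

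From 5 to 8 d and from 8 to 28 d none of the 7 responses passed with edgeR or DESeq2, where 0.192% (0.128% lower) and 0% of all genes passed. None of the 7 had an unadjusted p under 0.05 in these contrasts, against 7.29% and 16.1% of all genes. Between 5 and 28 d none passed with edgeR, against 9.63% of genes in either direction and 4.05% lower at 28 d. An unadjusted p under 0.05 was found for 1 of the 7 (27.1% of all genes). This was Iglon5, whose response was lower at 28 d by -0.49 ± 0.16 (FDR = 0.0537), and DESeq2 called it. Without D844 the difference was -0.31 (FDR = 0.307), and none of the 7 passed in edgeR in any of these 3 contrasts. The contrasts share mice, and a missed limit does not show that the responses were equal.

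The 4 rAAV-OVA mice of 28 d differed among themselves. Relative to the control mean, the log2 ratio of D845 was between -1.51 (Amph) and -0.86 (Elavl4), and that of D661 between -1.37 (Cntnap2) and -0.42 (Iglon5). D667 ran from -0.17 (Amph and Lgi1) to -0.66 (Iglon5). D844 had Dbn1 at 0.18 and Cntnap2 at 0.11, above the control mean, with Amph at -0.92. In 3 of the 4 mice the mean of the pan-neuronal genes had dropped to a like degree, by 1.12 in D845, 0.77 in D661 and 0.29 in D667. The ratio of that mean in D844 was -0.28.

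Within batches at 28 d, the difference in mean log2 CPM for batch 1 was -0.46 (Amph) to -0.85 (Cntnap2), and both rAAV-OVA mice were below both controls for all 7 genes, against 35.5% of all genes. In batch 2, which holds D844, it was -0.49 (Cntnap2) to -1.22 (Amph), and both were below for 5 genes, not for Dbn1 and Cntnap2, against 27.2%. All mice of 5 and 8 d belong to batch 1.

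In bulk tissue, fewer neurons and less RNA per neuron cannot be told apart. The antigen genes were set against 12 pan-neuronal genes such as Rbfox3, Snap25 and Map2, a comparison that cannot separate fewer neurons from less RNA per neuron either. Of these 12, 5 were lower at 5 d, 4 at 8 d and 8 at 28 d, against 13.99%, 4.44% and 14.3% of all genes, with median Log2FC of -0.35, -0.40 and -0.44. Without covariates 8, 1 and 9 were lower, against 15.3%, 2.65% and 16.6%. Their summed level at 5 d was 8185 to 9318 CPM in the rAAV-OVA and 11270 to 13616 CPM in the rAAV-control mice. At 28 d it was 5161 to 9648 CPM against 10903 to 12366 CPM. Without D844, 4 of the 12 were lower at 28 d with the surrogate variables (5.85% of all genes) and 10 without covariates (18.3%), and the sum in D844 was 9329 CPM. No sum of an rAAV-OVA mouse reached that of a control on either day, whereas at 8 d the groups overlapped, with 7742 to 9848 CPM against 9737 to 13035 CPM.

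When each gene was expressed relative to the pan-neuronal mean of the same mouse, none of the 28 comparisons (7 genes on 4 days) had groups apart. Of all genes, 3.30%, 53.7%, 31.3% and 46.8% had groups apart in either direction at 2, 5, 8 and 28 d. The pan-neuronal mean was itself lower in the rAAV-OVA groups of 5, 8 and 28 d, so a gene with unchanged CPM is higher on this scale. The exact permutation p, 2-sided and unadjusted, ran from 0.114 to 1, where the smallest possible value is 0.0286 for 4 against 4 mice and 0.0571 for 4 against 3, so that 8 d alone could not have reached 0.05. The lowest p was that of Dpp6 at 8 d, with a difference of -0.15 on the log2 scale (exact permutation p = 0.114). Iglon5 at 5 d was 0.25 higher relative to the pan-neuronal genes (exact permutation p = 0.171). These and Lgi1 at 8 d, with -0.11, were the 3 differences larger than the larger SD of the 2 groups. Amph at 28 d differed by -0.23 (exact permutation p = 0.343), and without D844 by -0.09 (exact permutation p = 0.686).

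The choice of the reference mattered at 28 d. Rbfox3, which encodes the neuronal nuclear protein NeuN, itself fell by 0.77 at 28 d (FDR = 0.000300, or -0.61 and 0.00486 without D844). Relative to Rbfox3 alone, Dbn1 was 0.34 higher in the rAAV-OVA mice of 28 d and Dpp6 0.26 higher, with groups apart for both (exact permutation p = 0.0286 each, the smallest possible, and 0.400 when adjusted over the 28 comparisons). Of all genes, 69.3% had every rAAV-OVA mouse above every control on this scale. Lgi1 at 28 d was 0.28 higher with overlapping groups (exact permutation p = 0.0571). Without D844 the values were 0.20 for Dbn1 and 0.23 for Dpp6, still apart (exact permutation p = 0.0571 each, the smallest possible), against 76.0% of all genes. No other of the 28 comparisons with Rbfox3 had groups apart.

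The genes also tracked the pan-neuronal mean from mouse to mouse. Over the 12 rAAV-OVA mice of 5 to 28 d, Pearson's r with that mean was 0.98 for Dpp6, 0.91 for Lgi1, 0.86 for Dbn1, 0.82 for Amph, 0.70 for Cntnap2, 0.66 for Elavl4 and 0.56 for Iglon5. Without D844, r for Amph was 0.94 and for Cntnap2 0.78. Over the 15 rAAV-control mice r was 0.64 to 0.80 for 6 of the genes and 0.09 for Iglon5. Over the same controls r of Iglon5 was -0.20 with Lgi1 and -0.31 with Cntnap2, whereas Lgi1, Amph and Dpp6 reached 0.93 to 0.94 with each other. All these values come from the same libraries, whose composition enters both axes.

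**Figure D3:**
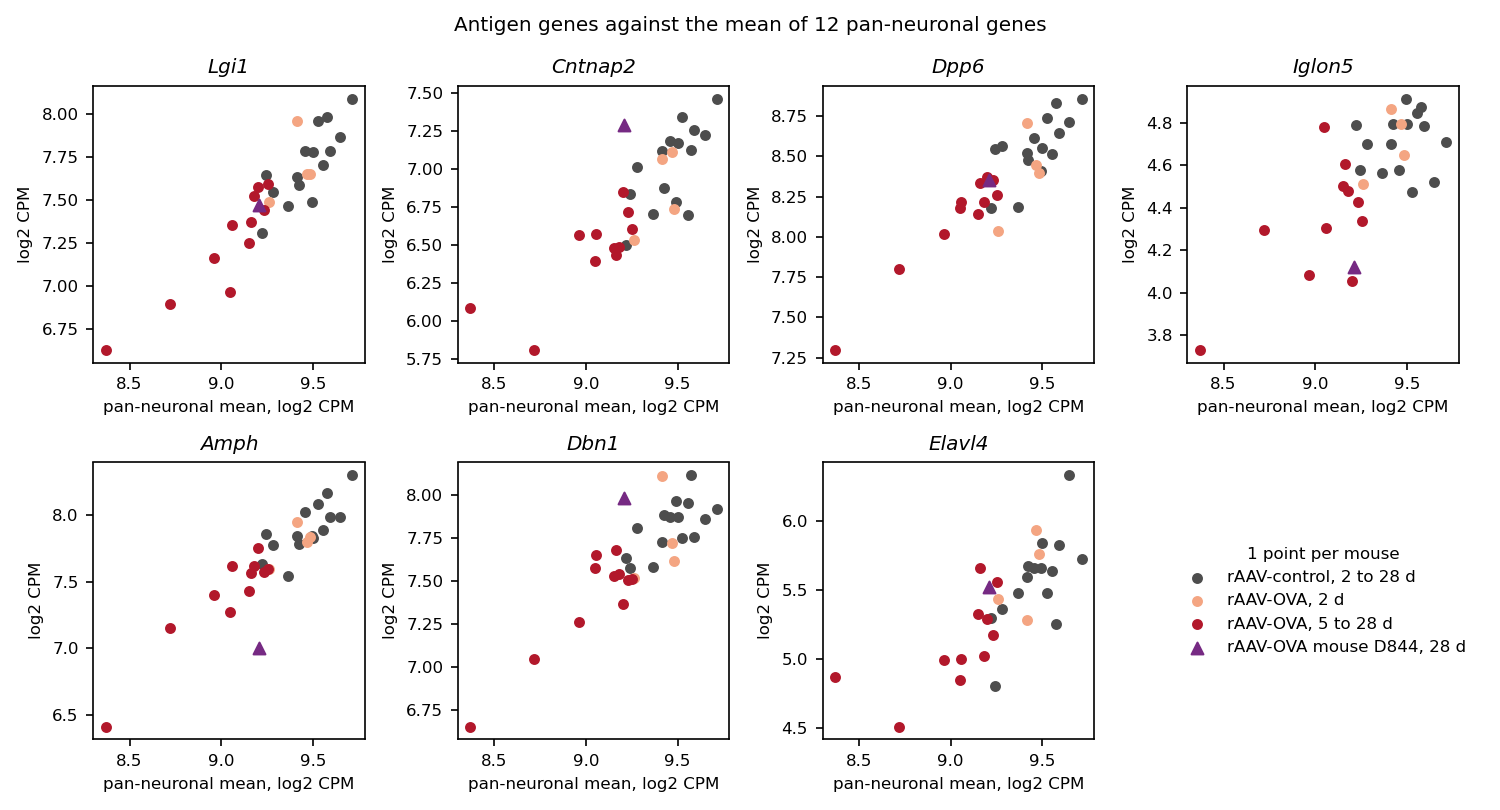
Log2 CPM of each antigen gene (y axis) against the mean log2 CPM of 12 pan-neuronal genes (x axis), 1 point per mouse. Dark points are the 15 rAAV-control mice, light points the rAAV-OVA mice of 2 d, red points those of 5 to 28 d and the triangle mouse D844. Dpp6 and Lgi1 follow the pan-neuronal mean closely. D844 lies below the other mice for Amph and above them for Cntnap2 and Dbn1 at a like neuronal mean.

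Markers of other cells moved along with these falls, not all of them on every day, and their part in them was not tested. Cd8a, the only one of 6 T cell markers in the table, was at 32.02 to 46.2 CPM in the rAAV-OVA mice of 5 d and at 0.108 to 1.35 CPM in their controls. The summed level of 5 microglial markers was 639 to 708 CPM against 306 to 505 CPM at 5 d, and 3 of the 5 passed as higher and P2ry12 as lower. The 5 astrocyte markers summed to 3519 to 4657 CPM against 2087 to 3269 CPM, mainly through Gfap, at 2548 against 939 CPM on average (FDR = 0.134 with the surrogate variables, 0.0128 without covariates). Aqp4, which encodes a water channel of astrocytes, had 0.49 (FDR = 0.0976) and, without covariates, 0.68 (FDR = 0.0188). Among them Gja1, a connexin gene, fell by 0.91 (FDR = 0.000153), and Slc1a3 had -0.06 (FDR = 0.725). Mog and Cnp, marker genes of oligodendrocytes, the myelin-forming cells, also fell at 5 d, by 1.05 (FDR = 0.00402) and 0.81 (FDR = 0.00794). At 28 d neither passed, with or without D844, and the microglial sum was 310 CPM in D844, 606 to 925 CPM in the other rAAV-OVA mice and 234 to 271 CPM in the controls. The astrocyte sum of 28 d was 2232 CPM in D844, 3260 to 4842 CPM in the other rAAV-OVA mice and 1596 to 1945 CPM in the controls, and Gfap rose by 1.09 (FDR = 0.0461), or 1.72 (FDR = 0.00340) without covariates. Without D844 it had 1.33 (FDR = 0.0534) and 2.06 (FDR = 0.000401) in the same fits. The CA1 markers, 4 genes of the injected region, summed to 378 to 450 CPM in the rAAV-OVA and 643 to 701.8 CPM in the rAAV-control mice at 5 d, and Fibcd1 among them fell by 1.31 (FDR = 0.00284). At 28 d they summed to 267 CPM in D844, 306 to 455 CPM in the other rAAV-OVA mice and 537 to 679.9 CPM in the controls. At 8 d the microglial sums overlapped, at 617 to 937 CPM in the rAAV-OVA and 259 to 742 CPM in the rAAV-control mice. So did the astrocyte sums, at 3312 to 4032 CPM and 1797 to 4486 CPM.

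Close relatives of the antigen genes did not all move with them. Lgi3, a paralog of Lgi1, fell at 5 d (Log2FC -0.94, FDR = 7.35e-05), when Lgi1 had -0.42, and had -0.29 at 28 d (FDR = 0.135, or -0.04 and 0.880 without D844). Lgi2 and Lgi4 did not pass on either day with the surrogate variables, but without covariates Lgi2 fell by 0.85 at 28 d (FDR = 0.0381), or by 1.03 (FDR = 0.0182) without D844. Cntnap1, which builds the paranodal junction of myelinated axons, fell by 0.78 at 5 d (FDR = 0.000785) and by 0.57 at 28 d (FDR = 0.00976). Without D844 the latter was -0.31 (FDR = 0.234) with the surrogate variables and -0.70 (FDR = 0.00514) without covariates. Cntnap4 and Cntnap5a did not pass with the surrogate variables. Without covariates Cntnap4 had -0.62 at 28 d (FDR = 0.0412, or 0.0615 without D844) and Cntnap5a -0.65 (FDR = 0.0723), or -1.02 (FDR = 0.00476) without D844. The difference between a gene and its paralog was not tested.

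Among the other IgLON genes, Ntm fell by 0.44 at 5 d (FDR = 0.000851) and had -0.07 at 28 d (FDR = 0.549; without covariates and D844 -0.43, FDR = 0.0335), whereas Iglon5 passed at 28 d and not at 5 d. Lsamp fell by 0.46 (FDR = 0.0241) and 0.44 (FDR = 0.0311), Opcml had -0.36 at 5 d and fell by 0.75 at 28 d (FDR = 0.0106), and Negr1 did not pass. Without covariates Negr1 had -0.59 at 5 d (FDR = 0.0340). Without D844 the 28 d values were -0.40 for Lsamp (FDR = 0.143) and -0.45 for Opcml (FDR = 0.200) with the surrogate variables, but -0.57 (FDR = 0.0141) and -0.66 (FDR = 0.0224) without covariates, so both calls were lost without D844 in the first fit only.

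The amphiphysin relatives split. Bin1, expressed in neurons and oligodendrocytes, fell by 0.30 at 5 d (FDR = 0.0325, or -0.24 and 0.0618 without covariates) and by 0.36 at 28 d (FDR = 0.0112, or -0.09 and 0.627 without D844, where the fit without covariates gave -0.16 and 0.193). Bin2, a gene of blood and microglial cells, rose by 1.27 at 5 d, from 9.24 to 32.2 CPM (FDR = 0.00663), and by 1.77 at 28 d (FDR = 0.000723), or 2.25 (FDR = 0.000330) without D844. Dbnl, the drebrin-like gene found in many cell types, rose by 0.40 at 5 d (FDR = 0.00205) and by 0.29 at 28 d (FDR = 0.0171), or 0.44 (FDR = 0.00658) without D844. In contrast to their relatives Amph and Dbn1, both were higher.

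Of the other Elavl genes, Elavl2 fell by 0.71 (FDR = 0.00819) and Elavl3 by 0.32 (FDR = 0.0322) at 28 d, whereas Elavl1, which most cells express, had -0.04 (FDR = 0.762). Without D844 Elavl2 was at -0.41 (FDR = 0.202) and Elavl3 at -0.24 (FDR = 0.174) with the surrogate variables, and at -0.73 (FDR = 0.00686) and -0.62 (FDR = 0.00231) without covariates. Dpp10, the paralog of Dpp6, had a Log2FC of 0.79 (FDR = 0.0274) at 28 d that came with 155 CPM in D844. Without D844 the value was 0.46 (FDR = 0.410) with the surrogate variables and -0.41 (FDR = 0.448) without covariates.

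**Figure D4:**
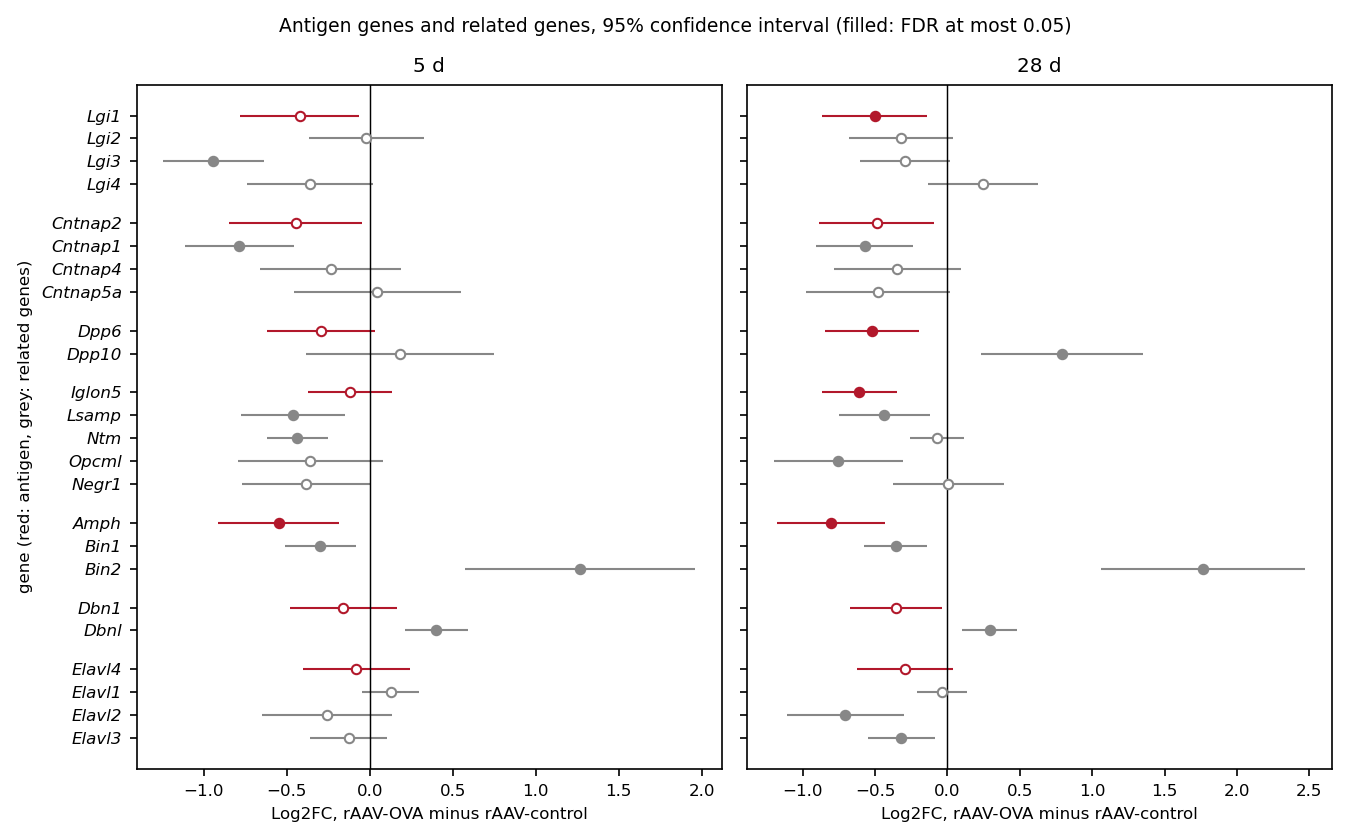
Log2FC with 95% confidence intervals of the antigen genes and their relatives at 5 d and 28 d, from the model with 2 surrogate variables and all mice. Bin2 and Dbnl lie above 0 on both days, whereas Lgi3 and Cntnap1 lie furthest below 0 at 5 d. The value of Dpp10 at 28 d includes mouse D844.

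The proteins that work with the antigens were listed as 44 partner and paralog genes. Of these, 17 were lower and 3 higher at 5 d (median Log2FC -0.30), where 13.99% of all genes were lower and 15.2% higher. At 8 d 7 were lower and 2 higher (median -0.31), against 4.44% and 13.9%, and at 28 d 21 were lower and 3 higher (-0.33), against 14.3% and 19.2%. Without D844, 9 were lower at 28 d with the surrogate variables (median -0.31, against 5.85% of all genes) and 29 without covariates (-0.53, against 18.3%). The list was chosen with earlier results of these data known.

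By partner, Kcnip2, a cytoplasmic subunit of the Kv4 channels that DPPX joins, fell by 0.90 at 5 d (FDR = 0.00706), and Kcnip3 had 0.52 (FDR = 0.00576) with the surrogate variables and 0.30 (FDR = 0.170) without covariates. Kcnab2, the beta subunit of the Kv1 channels gathered by CASPR2, fell by 0.82 (FDR = 0.00183), and Epb41l3, which tethers CASPR2 to the cytoskeleton, by 0.40 (FDR = 0.000338). Dlg4, the postsynaptic scaffold PSD-95 that holds ADAM22, fell by 0.44 (FDR = 0.0486). For amphiphysin, the GTPase gene Dnm1 fell by 0.52 (FDR = 0.0182), and for drebrin, the scaffold gene Homer2 fell by 0.67 (FDR = 0.00205). These genes were named because they had the largest or smallest Log2FC among those that passed in their lists, so that their values describe the ends of the lists and not the partners as a whole.

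Further antigens of autoimmune encephalitis and paraneoplastic disease formed a list of 27 genes. Elavl2 and Elavl3 among them also belong to the 44 partner and paralog genes. At 5 d 6 were lower and 1 higher (median Log2FC -0.28), against 13.99% and 15.2% of all genes. At 8 d 2 were lower (-0.34), near the 4.44% of all genes, and at 28 d 15 were lower and 1 higher (-0.41), against 14.3% and 19.2%. Without D844, 8 were lower at 28 d with the surrogate variables (median -0.46, against 5.85% of all genes) and 21 without covariates (-0.61, against 18.3%), and none was higher. At 5 d Gria1 and Grin1, subunits of the AMPA and NMDA receptors, fell by 0.52 (FDR = 0.0352) and 0.43 (FDR = 0.0239), and Pnma2, the gene of the Ma2 antigen, by 0.51 (FDR = 0.0334). Dpysl5, the gene of the CV2 antigen, had 0.50 (FDR = 0.0237) with the surrogate variables and 0.20 (FDR = 0.499) without covariates. Gad2, the gene of GAD65, did not pass on any day and had 0.43 (FDR = 0.240) at 5 d with the surrogate variables, -0.02 (FDR = 0.977) without covariates and 0.05 (FDR = 0.852) with the surrogate variables and without D844. The 1 gene higher at 28 d was Drd2, which without D844 had -0.11 (FDR = 0.890) with the surrogate variables and 0.20 (FDR = 0.688) without covariates.

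Finally, the genes most like each antigen gene were sought over all 31 mice by Pearson's r of log2 CPM. For Amph they were Chrm1, a muscarinic receptor gene (r = 0.97), and Slitrk3 (r = 0.97), for Lgi1 the reticulon genes Rtn3 and Rtn1 (both r = 0.95), and for Cntnap2 Map9 (r = 0.96) and Grm5 (r = 0.96). Dpp6 was most like Grin1 (r = 0.96) and Slc1a1, a neuronal glutamate transporter gene (r = 0.96), and Dbn1 most like Celf5 (r = 0.95) and Cacnb1 (r = 0.94). Elavl4 was most like Gria4 (r = 0.94) and Fgf12 (r = 0.91). Iglon5 had the weakest nearest neighbours, the mitochondrial alanyl-tRNA synthetase gene Aars2 (r = 0.92) and Numbl (r = 0.87). Without D844 the first gene stayed the same for Dbn1, Iglon5 and Elavl4 and became Rtn1 for Lgi1, Adam23 for Cntnap2 (r = 0.96), Mapk8ip2 for Amph (r = 0.98) and Slitrk3 for Dpp6 (r = 0.98).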

How the data were processed

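RNA of the left hippocampus was sequenced in 31 mice. The authors trimmed reads with fastp, quantified them with Salmon 1.8.0 against GENCODE mouse transcripts with GC correction, summed them to genes, filtered genes at 15 counts in 15 or more mice, and deposited the estimated counts as unnormalized whole numbers. Both deposited tables were identical (0 cells differed). The submitters' processing notes also name DESeq2 1.36.0.

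Mice were grouped by vector and day as labelled. The counts were tested with edgeR 4.0.16 in R 4.3.3 (TMM, robust quasi-likelihood F-test) with a term for each of the 8 groups plus 2 surrogate variables (sva 3.50.0), with Benjamini-Hochberg FDR over 15648 genes. CPM used TMM library sizes, and log2 CPM a prior count of 2. Alternatives were DESeq2 1.42.0 (Wald test, size factors), no covariates, the batch label, a filter of 15 counts in every mouse, the mice of a day alone, each mouse left out, and, chosen after seeing the data, D844 left out with no covariates or together with D720. The exact permutation test compared levels relative to 12 pan-neuronal genes. Scripts were tested on simulated data.

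Members and lists were chosen with earlier results of these data known. Named genes are the members, their paralogs, the largest and smallest Log2FC at 5 d among genes that passed in each other list, and the 2 genes most correlated with each member. Gad2, Drd2, the other genes used to check D844, and single list genes given as examples were named after their values were seen. Coordinates are given for the promoter windows alone, on GRCm38.p6, the build of the reference tables, whereas the counts use GRCm39. Library totals, 19046977 to 57407902 counts, put counting error of the members below the spread between mice. No pair of mice within a group agreed within counting noise. Sex and age were not modelled, and the human samples were not analysed here.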

Additional observations from a re-analysis of the deposited data

Results flagged for a closer look

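Lgi1 in the rAAV-control mouse D706 of 28 d, at 199 CPM, lay far from the other 3 controls of that group, which were at 220 to 221 CPM (Dixon ratio 0.954). It was the only such case among 49 groups of 4 mice, and chance alone flags about 1 in 20. All 4 rAAV-OVA mice of that day were still below D706.

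The response of Lgi1 differed between 5 and 2 d by -0.67, and that of Amph by -0.68, by the interaction test in edgeR. The Log2FC of both was above 0 at 2 d, where neither passed, and below 0 at 5 d, where Amph passed and Lgi1 did not. Both differences between days lay close to the FDR limit.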

How the results depend on the processing

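The count of antigen genes that passed was 1 at 5 d, 0 at 8 d and 4 at 28 d in the reported model. At 5 d it became 0 with the Log2FC limit of 0.66 (met by 4.67% of all genes), 4 with 15 counts in every mouse (13779 genes, 16.3%), 5 with the mice of the day alone (18.4%), and 3 without covariates (15.3%, or 14.8% without D844), with the batch label (16.7%), or with D844 and D720 left out (18.1%). At 8 d it became 1 without covariates (2.65%, or 4.53% without D844) or with the batch label (3.38%) and 4 without D844 and D720 (10.6%). At 28 d it became 1 with the Log2FC limit (4.86%) or the mice of the day alone (4.54%), and 7 with 15 counts in every mouse (19.3%), without covariates (16.6%, or 18.3% without D844) or with the batch label (18%). With D844 and D720 left out, all but Elavl4 (FDR = 0.166) passed at 28 d (18.4%). The interaction of 5 against 2 d had 2 calls and 0 with DESeq2 size factors, where Lgi1 had an FDR of 0.0508 and Amph of 0.0514. That of 28 against 5 d had 0 and 1 with DESeq2's Wald test (Iglon5, FDR = 0.0363). The shares of all genes in these DESeq2 settings are not given here, so the counts cannot be set against them. Leaving out 1 mouse at a time gave 0 to 3 calls at 5 d (7.78% to 15.2% of all genes lower), 0 to 2 at 8 d (0.160% to 8.33%), 2 to 7 at 28 d (5.57% to 18.7%), 0 to 3 for 5 against 2 d (3.8% to 9.97%), 0 to 1 for 28 against 5 d (0.780% to 6.41%) and 0 throughout at 2 d and for the other interactions. The cause of these shifts was not tested.

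Among the 7 antigen genes signs turned only in values that passed no test, whereas Dpp10, called higher at 28 d, turned to -0.41 without covariates and D844, and Drd2, also called higher, to -0.11 without D844. With 1 mouse left out, Dbn1 at 2 d ran from -0.15 to 0.15, Cntnap2 from -0.063 to 0.25, Dpp6 from -0.080 to 0.16 and Iglon5 from -0.083 to 0.045, and Elavl4 from -0.24 to 0.018 at 5 d and from -0.43 to 0.26 at 8 d. The negative values at 2 d came without BEC-B542 (Dbn1, Dpp6 and Iglon5), BEC-B541 (Cntnap2 and Iglon5) or D740 (Iglon5), and the positive ones of Elavl4 without D725 or D723 at 5 d and without D696 at 8 d. Iglon5 at 2 d was -0.0071 with 15 counts in every mouse, -0.0041 without covariates and with the day alone, -0.0043 with the batch label and -0.0080 without covariates and D844. In batch 1 alone Elavl4 at 28 d differed by -0.81. Relative to the pan-neuronal genes groups came apart for Elavl4 at 5 d without D786 (56.4% of all genes), Lgi1 at 2 d without BEC-R385 (4.93%), Cntnap2 at 8 d without D700 (32.6%), Dpp6 at 8 d without D703 (33.4%) and 4 genes at 8 d without D696 (39.3%), and relative to Rbfox3 for 2 genes at 28 d (69.3%). No comparison passed after adjustment. With 28 comparisons and a smallest possible exact permutation p of 0.0286, a few at that p could not pass, so this decides nothing. No paired analysis was possible because each mouse name belongs to a single mouse. The spread between 3 or 4 mice per group, and not depth, set the precision.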
